A study of Mus musculus with 9 samples.

Results

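The 30 genes described here encode the enzymes that build cholesterol and long-chain fatty acids and the proteins that switch those enzymes on. They were chosen by name as SREBP regulators, sterol enzymes and fatty acid enzymes, and all 30 of them were found in the deposited table of 26445 entries. Messenger RNA was measured in wild-type mouse corneal epithelial cells of the line iCell-0093a held at 21%, 8% or 1% oxygen, with 3 libraries at each level and 9 in all. No other agent or allele is named in the labels, and the sources used here do not give the time spent at each oxygen level. All libraries come from a single line, and the labels do not say whether the 3 libraries of a level were separate cultures, so every p-value below describes the spread between these libraries, which may be technical.

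Values are FPKM, fragment counts divided by transcript length and by the mapped total of the library, so levels can be set beside each other between genes. The column sums lay between 317704 and 333178 FPKM, and between 19837 and 20569 entries were above 0; read depth cannot be read from these values. The simple epithelial keratin genes Krt8 and Krt18 averaged 572 and 582 FPKM, whereas Pax6, the eye regulator that marks corneal epithelium, reached at most 0.0208 FPKM. Pax6 by itself thus does not bear out the corneal label. Aldh3a1, of the same list of epithelial markers, reached at least 1 FPKM in at least 3 libraries. Markers of adipocytes and lipid glands, cells that make large amounts of lipid, were near 0: the highest value of any of the 4 in the table (Plin1, Fabp4, Awat2 and Cidec) was 0.468 FPKM, for Awat2. Leukocyte and endothelial markers were also low (Ptprc at most 0.0101 and Pecam1 at most 0.0403), although Cd68, a lysosomal protein of macrophages, averaged 34.8 FPKM. Cd68 went from 25.4 ± 5.71 FPKM at 21% oxygen to 43.3 ± 1.91 at 8% (0.77, adjusted p = 0.0123). The summed level of the 2 leukocyte markers tested, Cd68 and Csf1r, was 19.17 to 29.77 FPKM at 21%, 42.36 to 46.7 at 8% and 32.25 to 41.55 at 1%. Nearly all of this sum was Cd68. Csf1r passed the filter on low values only through the 8% libraries (0.303 to 0.535 FPKM at 21%, 1.05 to 1.58 at 8%), so its difference is not counted. Of the 9 fibroblast and keratocyte markers 8 were in the table and 2 were tested, and their sum was 773.5 to 796.4 FPKM at 21%, 957.5 to 1024 at 8% and 793.5 to 843.7 at 1%, nearly all of it Vim, the intermediate filament gene of mesenchymal and cultured cells. Vim rose at 8% against 21% oxygen (0.32, adjusted p = 0.00846); Pdgfra stood at 6.89 to 9.4 FPKM (−0.08, adjusted p = 0.614), and of the other 6 none exceeded 1.02 FPKM (Lum and Dcn at most 0.0208 and 0.0684). Of the 6 epithelial markers tested 1, Krt18, was called higher at 8% against 21% oxygen (0.38, adjusted p = 0.0159) and none lower, with 4 estimates positive and 2 negative (Krt8 and Aldh3a1). The sum of the 6 epithelial markers tested was 1093 to 1448 FPKM at 21%, 1400 to 1415 at 8% and 1342 to 1561 at 1%. The part of these markers in the results below was not tested, and in bulk RNA fewer cells of a type cannot be told apart from less RNA per cell.

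Cholesterol is made from acetyl-CoA by way of mevalonate, farnesyl diphosphate, squalene and lanosterol, and fatty acids are made from the same acetyl-CoA by carboxylation, chain building, elongation and desaturation. The transcription factors SREBP1 and SREBP2 govern both routes. Their precursors sit in the endoplasmic reticulum bound to the chaperone SCAP, INSIG proteins hold that complex back when sterol is plentiful, and when sterol is scarce SCAP carries the precursors to the Golgi, where the site 1 and site 2 proteases release the active factor. Several enzymes of both routes consume molecular oxygen, among them squalene epoxidase, the lanosterol demethylase, the sterol C4 oxidase, the sterol C5 desaturase and the stearoyl-CoA desaturases.

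All 30 genes had at least 1 FPKM in at least 3 libraries and entered the test. Their mean levels ran from 1.05 FPKM for Tm7sf2 to 118 for Scd2, with a median of 19.0. The genes were tested with limma on log2(FPKM + 1) in a single model over the 9 libraries and 11856 genes, with Benjamini-Hochberg adjustment over all of them and a call at an adjusted p of 0.05. Fold changes are on that log2 scale and understate the change of genes with low FPKM.

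The clearest change was in Scap. Scap (ENSMUSG00000032485, chromosome 9, 110333288 to 110384950 on GRCm38, plus strand), which encodes the SREBP chaperone, stood at 10.1, 10.9 and 10.8 FPKM in the 21% oxygen libraries, at 6.10, 5.99 and 5.91 at 8%, and at 8.06, 7.38 and 8.68 at 1%. The 3 levels did not overlap, with 21% highest and 8% lowest. Scap fell by 0.73 (SE 0.0654, adjusted p = 0.000983) from 10.6 ± 0.433 to 6.0 ± 0.0955 FPKM (SD, n = 3) at 8% against 21% oxygen, and the call was kept in all 16 alternative settings run, with adjusted p between 0.000666 and 0.0073. It also fell at 1% against 21% oxygen, by 0.36 (adjusted p = 0.0274) to 8.04 ± 0.65 FPKM, a call that 8 of the 16 settings kept (adjusted p between 0.019 and 0.106). It was lost without 21% replicate 1 or 2, 8% replicate 1, or 1% replicate 1 or 2. Between 1% and 8% oxygen the estimate was 0.37 higher at 1% (SE 0.0654, adjusted p = 0.0714, unadjusted p = 0.000428), and it passed in the fit to the 6 libraries of those levels (adjusted p = 0.0433) and without 21% replicate 3 (0.0371). Exons of the antisense gene 5830462I19Rik overlap 985 bases of Scap exons, and no source used here states the strand setting of the authors' counting. That gene averaged 0.697 ± 0.12, 0.452 ± 0.0759 and 0.512 ± 0.0615 FPKM at 21%, 8% and 1% oxygen.

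**Figure D1:**
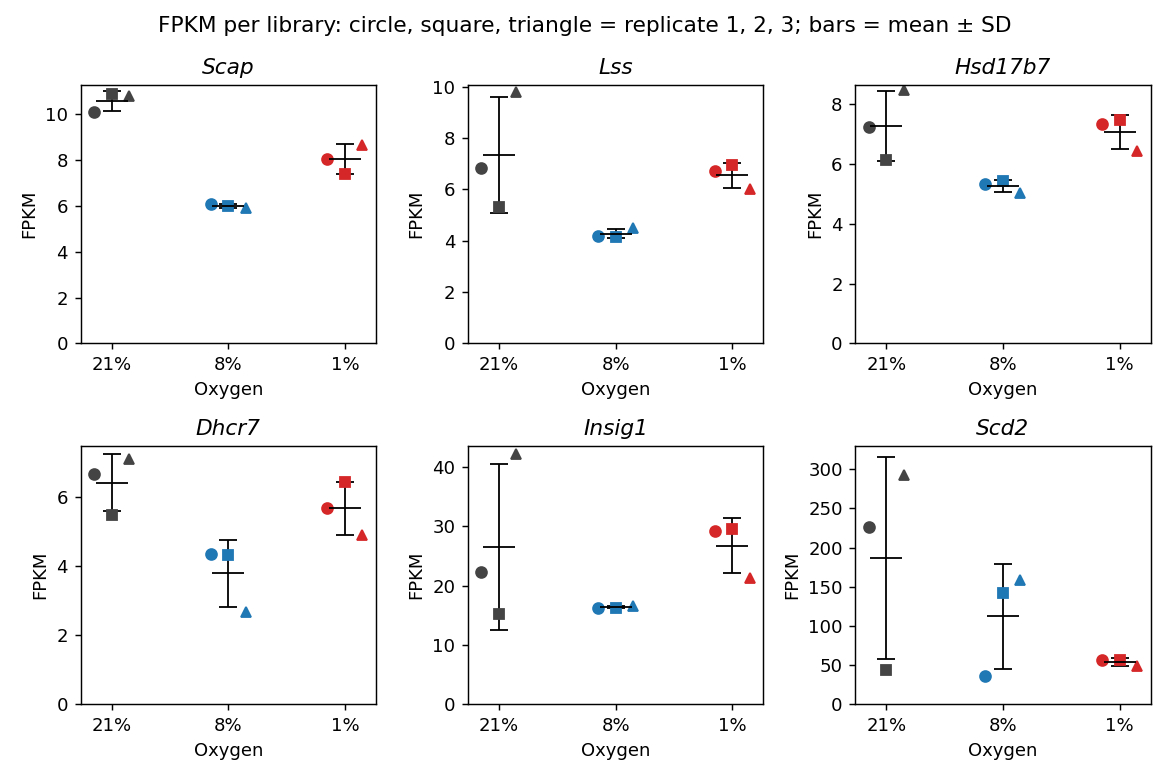
FPKM in each library (y axis, from 0) by oxygen level (x axis) for Scap, Lss, Hsd17b7, Dhcr7, Insig1 and Scd2. Circles, squares and triangles are replicates 1, 2 and 3, and bars give the mean ± SD of 3 libraries. The 3 levels of Scap are apart, Insig1 spans 15.2 to 42.1 FPKM within 21% oxygen, and Scd2 differs several-fold between libraries of 21% and of 8% oxygen.

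The other regulators did not pass the test in any comparison. Srebf2, the sterol-directed SREBP gene, stood at 41.8, 37.8 and 46.7 FPKM at 21% oxygen, at 35.2, 34.8 and 36.4 at 8% and at 37.5, 38.3 and 36.3 at 1%. Its 8% libraries all lay below its 21% libraries (−0.24, SE 0.0744, adjusted p = 0.0518), and it passed with quantile normalization, with a minimum mean of 5 FPKM and without 21% replicate 2. Srebf1, whose products mainly direct fatty acid synthesis, averaged 9.59 ± 1.89, 7.95 ± 0.712 and 8.67 ± 0.814 FPKM at 21%, 8% and 1%, with overlapping groups. The retention genes Insig1 and Insig2 differed in how their libraries were spread. Insig1, itself an SREBP target, stood at 22.3, 15.2 and 42.1 FPKM at 21% oxygen, at 16.3, 16.3 and 16.6 at 8% and at 29.2, 29.5 and 21.3 at 1%. All 1% libraries were above all 8% libraries, while the 21% libraries reached both above and below them (1% against 8% oxygen 0.66, SE 0.306, adjusted p = 0.289; 0.0477 in the fit to the 6 libraries). Insig2 stayed between 15.4 and 19.2 FPKM in all 9 libraries. Stard4, a sterol carrier of the cytosol, averaged 8.61 ± 2.23, 7.73 ± 0.438 and 8.98 ± 0.858 FPKM.

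Other genes that process SREBP or carry out sterol-dependent protein degradation were counted from a separate list, of which 13 were in the table and tested. At 8% against 21% oxygen 6 of them fell and 1 rose, where 14.9% of all genes were called lower and 8.38% higher. Mbtps1, the site 1 protease that makes the first cut in SREBP, stood at 25.1, 21.1 and 27.6 FPKM at 21% oxygen, at 16.5, 15.9 and 15.2 at 8% and at 20.4, 19.0 and 18.7 at 1%. As with Scap, the 8% libraries were lowest and the levels did not overlap (8% against 21% oxygen −0.60, adjusted p = 0.00442; 1% against 21% −0.32, adjusted p = 0.0841). Mbtps2, the site 2 protease, averaged 9.36 ± 1.36 FPKM at 21% and 7.43 ± 0.32 at 8% (−0.29, adjusted p = 0.0568). Erlin1 (−0.44, adjusted p = 0.0289) and Ubxn8 (−0.42, adjusted p = 0.0094), both of the endoplasmic reticulum, fell with the ubiquitin ligase gene Rnf139 (−0.33, adjusted p = 0.00695). Erlin2, the partner of Erlin1, rose from 20.7 ± 1.15 to 27.5 ± 0.323 FPKM (0.39, adjusted p = 0.00279) and was also higher at 1% than at 21% oxygen (0.30, adjusted p = 0.0267), which was the only call of the list there (1.35% of all genes were called higher). Most of the list went the other way at 1% against 21% oxygen. By limma 9 of the 13 were lower there at an unadjusted p under 0.05 and 1 was higher (1878 and 880 of all 11856 genes). No gene of this list was called between 1% and 8% oxygen by limma, where 3 had an unadjusted p under 0.05 in the higher and 1 in the lower direction.

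Among the enzymes, 3 of the late sterol pathway fell at 8% against 21% oxygen. With Scap, 4 of the 30 genes were called lower and 0 higher in that comparison by limma. Over all 11856 genes 14.9% were called lower and 8.38% higher, 23.3% in all, so the share of lower calls was near the background. At an unadjusted p under 0.05, 10 genes were lower and 1 (Mvd) was higher, where 2807 of all 11856 genes were lower and 1697 higher. Of the 30 estimates 26 were negative, against 6621 of 11856 for all genes, and the median was −0.30 against −0.0399. That median rested in part on single 21% libraries: it was −0.102 without 21% replicate 3 and −0.467 without 21% replicate 2. The 8% libraries all lay below the 21% libraries in 10 of the 30 genes (25.5% of all genes) and all above them in 1, Ebp (15.4% of all genes). The F test across the 3 levels called 1 of the 30, Scap (adjusted p = 0.00272), where 16.3% of all genes were called.

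Lss (ENSMUSG00000033105, chromosome 10, 76531588 to 76557138, plus strand), lanosterol synthase, which closes the sterol rings, stood at 6.85, 5.33 and 9.78 FPKM at 21% oxygen, at 4.20, 4.14 and 4.49 at 8% and at 6.73, 6.93 and 6.0 at 1%. The 8% libraries were below all others. Exons of the antisense gene 4930483K19Rik overlap 381 bases of Lss exons, and that gene did not exceed 0.203 FPKM. Lss fell by 0.62 (SE 0.167, adjusted p = 0.0303), a call kept in 8 of 16 settings (adjusted p between 0.00722 and 0.0812). Dhcr7 (ENSMUSG00000058454, chromosome 7, 143823145 to 143848410, plus strand), the reductase of the last step to cholesterol, stood at 6.67, 5.49 and 7.11 FPKM at 21%, at 4.35, 4.33 and 2.68 at 8% and at 5.69, 6.43 and 4.90 at 1%. Again the 8% libraries were lowest, with 8% replicate 3 below its companions (−0.65, SE 0.163, adjusted p = 0.0246). That call was kept in 11 of 16 settings (adjusted p between 0.0221 and 0.0699). Hsd17b7 (ENSMUSG00000026675, chromosome 1, 169949535 to 169969241, minus strand), the sterol 3-keto reductase, stood at 7.22, 6.13 and 8.47 FPKM at 21%, at 5.34, 5.42 and 5.03 at 8% and at 7.32, 7.47 and 6.42 at 1%. It fell by 0.39 (SE 0.104, adjusted p = 0.0294), kept in 6 of 16 settings (adjusted p between 0.00961 and 0.0906). The number of calls depended on single libraries. Without 21% replicate 2, 14 of the 30 genes were called lower and 0 higher (15.6% and 9.56% of all genes), namely Srebf1, Srebf2, Scap, Insig1, Acat2, Mvk, Idi1, Lss, Cyp51, Msmo1, Hsd17b7, Dhcr7, Acly and Acaca. Without 21% replicate 3, Scap and Lss were called lower and Mvd higher (14.2% and 7.27% of all genes). The count of lower calls was 1 without 21% replicate 1 or 8% replicate 3, and 2 without 8% replicate 1 or 8% replicate 2. The F test called 6 of the 30 without 21% replicate 2 and 5 without 21% replicate 3.

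The promoters of the called genes are printed because these genes moved in the same direction. That of Hmgcs1, the HMG-CoA synthase of the mevalonate branch, is printed because it alone held an exact match to TCACNCCAC. This string is the core of the sterol regulatory element, and variants that depart from it were not searched. The window searched runs from 250 bases before to 50 bases after the start of transcription and comes from RefSeq on GRCm38.p6, where 24 of the 30 genes matched by symbol. Fdps, Fdft1, Sqle, Scd1, Scd2 and Stard4 had no entry. Each line gives the 150 bases before the start, read 5′ to 3′ on the gene's strand. Capitals mark matches on either strand to TCACNCCAC (the element's core), CCAAT (the NF-Y box), GGGCGG (the Sp1 box) and CACGTG (the E-box, which some bHLH factors and SREBP1 can bind). For Scap the second of 2 listed starts and for Dhcr7 the third of 3 is shown, in each case the stretch with the most marked matches. The first Scap stretch ends directly before the annotated start of the gene given above. The Dhcr7 stretch shown lies inside the annotated gene, and its first listed start is the one beside the annotated gene start. The 150 bases before the other Scap start hold no marked match. Those before the first Dhcr7 start hold GGGCGG only, and those before the second hold none.
Scap, chr9:110333206-110333355, plus strand: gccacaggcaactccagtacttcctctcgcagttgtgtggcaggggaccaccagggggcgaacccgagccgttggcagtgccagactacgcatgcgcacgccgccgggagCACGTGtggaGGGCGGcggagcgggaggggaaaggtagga
Lss, chr10:76531455-76531604, plus strand: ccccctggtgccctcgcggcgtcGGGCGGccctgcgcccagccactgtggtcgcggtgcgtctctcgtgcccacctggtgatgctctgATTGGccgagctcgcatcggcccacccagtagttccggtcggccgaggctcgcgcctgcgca
Hsd17b7, chr1:169969206-169969355, minus strand: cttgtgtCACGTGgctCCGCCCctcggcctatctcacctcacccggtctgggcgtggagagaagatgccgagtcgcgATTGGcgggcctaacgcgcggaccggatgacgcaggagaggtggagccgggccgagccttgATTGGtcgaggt
Dhcr7, chr7:143830064-143830213, plus strand: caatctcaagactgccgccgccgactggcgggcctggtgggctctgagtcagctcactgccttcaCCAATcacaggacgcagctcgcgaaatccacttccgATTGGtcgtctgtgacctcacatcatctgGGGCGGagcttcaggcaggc
Hmgcs1, chr13:119690201-119690350, plus strand: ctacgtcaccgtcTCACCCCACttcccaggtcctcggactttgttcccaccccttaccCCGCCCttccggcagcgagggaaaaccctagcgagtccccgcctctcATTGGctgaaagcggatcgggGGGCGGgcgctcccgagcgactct

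The core TCACNCCAC was found in 1 of the 24 genes and in 1.44% of all 27025 genes with a promoter, and the same core with an A before it in 0 of 24 and in 0.27%. CCAAT was present in 20 of 24 (83.3%) against 41.1% of all genes, and GGGCGG in 20 of 24 against 38.2%. CACGTG was present in 5 of 24 (Scap, Insig1, Hsd17b7, Sc5d and Dhcr7, 20.8%) against 8.09%. Its shorter overlapping core ACGTG, also found within hypoxia response elements, was in 7 of 24 (29.2%) against 21.8%. The 24 genes all passed the filter on low values, whereas the 27025 were not limited to genes expressed in these cells. The shares therefore set unlike groups side by side, and whether they differ among expressed genes was not tested. Scap was the only called gene with no CCAAT in its windows. The E-box of Dhcr7 lies before its second listed start and is not in the stretch printed. A match of letters describes the window and does not show binding. The lack of an exact match does not show that an element is absent.

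The remaining enzymes of the squalene branch were not called. Cyp51, the lanosterol demethylase, had 26.1, 19.2 and 40.5 FPKM at 21% oxygen, 17.1, 16.7 and 15.7 at 8% and 27.7, 27.3 and 20 at 1%. Its 8% libraries lay below all others (8% against 21% oxygen −0.69, SE 0.237, adjusted p = 0.0662). Sqle, squalene epoxidase, had 33.0, 33.8 and 52.0 FPKM at 21%, 28.3, 29.0 and 27.2 at 8% and 37.7, 26.9 and 31.6 at 1%, so that only the 21% and 8% groups were apart (−0.45, SE 0.177, adjusted p = 0.101). Msmo1, the C4 oxidase, had 29.7, 29.5 and 29.7 FPKM at 8% oxygen, among 36.4, 29.6 and 55.6 at 21% and below 39.9, 39.3 and 32.9 at 1%. Nsdhl, which acts with Msmo1, averaged 18.8 ± 7.44, 17.4 ± 1.48 and 20.4 ± 2.29 FPKM with overlapping groups, and Sc5d, the C5 desaturase, 19.8 ± 3.02, 17.9 ± 1.03 and 19.9 ± 1.5. Ebp, the sterol isomerase, ran the other way, at 13.3, 13.5 and 14.6 FPKM at 21% oxygen, 15.6, 15.2 and 14.9 at 8% and 16.1, 15.5 and 14.6 at 1% (8% against 21% oxygen 0.13, SE 0.0586, adjusted p = 0.14). Fdft1, squalene synthase, spanned 20.2 to 33.6 FPKM within 1% oxygen alone. Its exons share 774 bases with Ctsb on the opposite strand, which averaged 124 to 131 FPKM at the 3 levels, so without the strand setting the level of Fdft1 is uncertain; Cyp51 likewise shares 166 bases with Akap9, at 5.65 to 6.06 FPKM. The sterol reductase Tm7sf2 stayed between 0.767 and 1.60 FPKM. Its exons overlap those of Vps51 on the same strand. Vps51 averaged 6.31, 6.83 and 6.75 FPKM at 21%, 8% and 1% oxygen, so the level of Tm7sf2 is uncertain too.

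In the mevalonate branch 0 of 7 genes were called in any comparison by limma, where 23.3%, 4.24% and 0.127% of all genes were called at 8% against 21%, 1% against 21% and 1% against 8% oxygen. At an unadjusted p under 0.05, Mvd was higher and Pmvk lower at 8% against 21% oxygen (1697 of all 11856 genes were higher and 2807 lower), Mvd was higher at 1% against 21% (880 of 11856) and 0 passed at 1% against 8%. Hmgcs1, the synthase that makes HMG-CoA, had 21.6, 15.6 and 46.2 FPKM at 21% oxygen, 18.3, 21.3 and 19.4 at 8% and 33.3, 33.7 and 25.5 at 1%. Idi1, the isopentenyl diphosphate isomerase, had 21.3, 13.1 and 36.1 FPKM at 21%, 14.3, 12.3 and 12.2 at 8% and 22.5, 30.7 and 16.1 at 1%. In both genes every 1% library was above every 8% library (1% against 8% oxygen 0.61, SE 0.326, adjusted p = 0.344 for Hmgcs1 and 0.75, SE 0.337, adjusted p = 0.275 for Idi1). The 21% libraries reached both above and below the 1% libraries, and the lowest of Idi1 lay among its 8% libraries. Of the 50-base stretches of Idi1 21.3% also occur in the processed pseudogene Gm13502. That pseudogene averaged 5.96 ± 4.79, 3.17 ± 1.07 and 3.55 ± 2.67 FPKM at 21%, 8% and 1% oxygen, so the level of Idi1 is uncertain. Exons of the antisense gene Gm48574 overlap 323 bases of Idi1 exons, and Gm48574 did not exceed 0.105 FPKM. Acat2, a thiolase that joins acetyl-CoA units, had 30.6, 14.9 and 45.1 FPKM at 21%, 25.1, 24.3 and 19.8 at 8% and 43.9, 34.8 and 30.3 at 1%. Of its longest coding transcript 45.9% of 50-base stretches also occur in Acat3, so reads of the pair may be divided in an unknown way; Acat3 averaged 5.78 ± 2.53, 3.89 ± 0.305 and 6.12 ± 1.28 FPKM. Fdps, farnesyl diphosphate synthase, averaged 54.8 ± 20.2, 46.2 ± 1.74 and 50.4 ± 6.64 FPKM, and 77.3% of its 50-base stretches occur in the overlapping gene Gm43738. The kinases Mvk (12.3 ± 4.54, 8.04 ± 0.715 and 10 ± 2.14 FPKM) and Pmvk (18.4 ± 1.28, 16.0 ± 0.962 and 16.9 ± 1.28) were lowest at 8% oxygen. Mvd, the mevalonate diphosphate decarboxylase, was the only gene of the branch with a positive estimate at 8% against 21% oxygen, with 16.7, 15 and 21.0 FPKM at 21%, 22.4, 22.4 and 20.3 at 8% and 22.2, 21.3 and 20 at 1%. Only 21% replicate 3 reached the levels of the other 6 libraries (8% against 21% oxygen 0.30, SE 0.11, adjusted p = 0.083; 0.0103 without that library).

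Of the 6 fatty acid genes 0 were called in any comparison by limma, beside the same shares of all genes (23.3%, 4.24% and 0.127%). At an unadjusted p under 0.05, 2 were lower at 8% against 21% oxygen (Acly and Acaca; 2807 of all 11856 genes were), 1 was higher at 1% against 8% (Acly; 1141 of 11856) and 0 passed at 1% against 21%. Acly, ATP citrate lyase, which supplies cytosolic acetyl-CoA to both routes, had 59.6, 43.4 and 83.2 FPKM at 21% oxygen, 42.6, 42.2 and 41.4 at 8% and 63.2, 65.3 and 53.0 at 1%. The 8% libraries were below all others (8% against 21% oxygen −0.50, SE 0.199, adjusted p = 0.102; 1% against 8% 0.51, SE 0.199, adjusted p = 0.221, and 0.0372 in the fit to the 6 libraries). Fasn, fatty acid synthase, had 24.6, 17.5 and 40.0 FPKM at 21%, 20, 21.5 and 20.2 at 8% and 25.6, 28.6 and 22.7 at 1%. Acaca, acetyl-CoA carboxylase, averaged 4.80 ± 0.959, 3.70 ± 0.457 and 4.57 ± 0.305 FPKM, with 52.6% of its 50-base stretches shared with the processed pseudogene Gm5182. The elongase Elovl6 averaged 11.3 ± 3.32, 8.71 ± 0.168 and 10.5 ± 1.46 FPKM. Scd1, a stearoyl-CoA desaturase, was even across the levels, at 17.9 ± 3.03, 16.6 ± 0.756 and 18 ± 1.43 FPKM (8% against 21% oxygen −0.08, SE 0.114; 1% against 21% 0.02).

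Scd2, the other abundant desaturase gene, did not follow the oxygen labels. It had 226, 43.1 and 292 FPKM at 21% oxygen, 36.2, 142 and 159 at 8% and 55.9, 57.0 and 48.2 at 1%. The libraries of 21% differed by 6.78 times and those of 8% by 4.39 times, with 21% replicate 2 and 8% replicate 1 near the level of the 1% libraries. None of its differences passed (8% against 21% oxygen −0.60, SE 0.756, adjusted p = 0.603; 1% against 21% −1.39, SE 0.756, adjusted p = 0.312). Of its 50-base stretches 2.68% occur in Scd1, its neighbour on chromosome 19, which varied by 1.41 times within 21% oxygen; Scd3 and Scd4 averaged at most 2.22 FPKM at any level.

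Of the 6 listed enzymes that consume oxygen (Sqle, Cyp51, Msmo1, Sc5d, Scd1 and Scd2) 0 were called in any comparison by limma, where 23.3% of all genes were called at 8% against 21% oxygen, 4.24% at 1% against 21% and 0.127% at 1% against 8%. At an unadjusted p under 0.05, 2 of them were lower at 8% against 21% oxygen (Sqle and Cyp51; 2807 of all 11856 genes were), 1 was higher at 1% against 8% (Cyp51; 1141 of 11856) and 0 passed at 1% against 21%. Their median log2 fold changes in those comparisons were −0.42, 0.16 and −0.10, beside −0.30, 0.22 and −0.05 for all 30 genes.

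**Figure D2:**
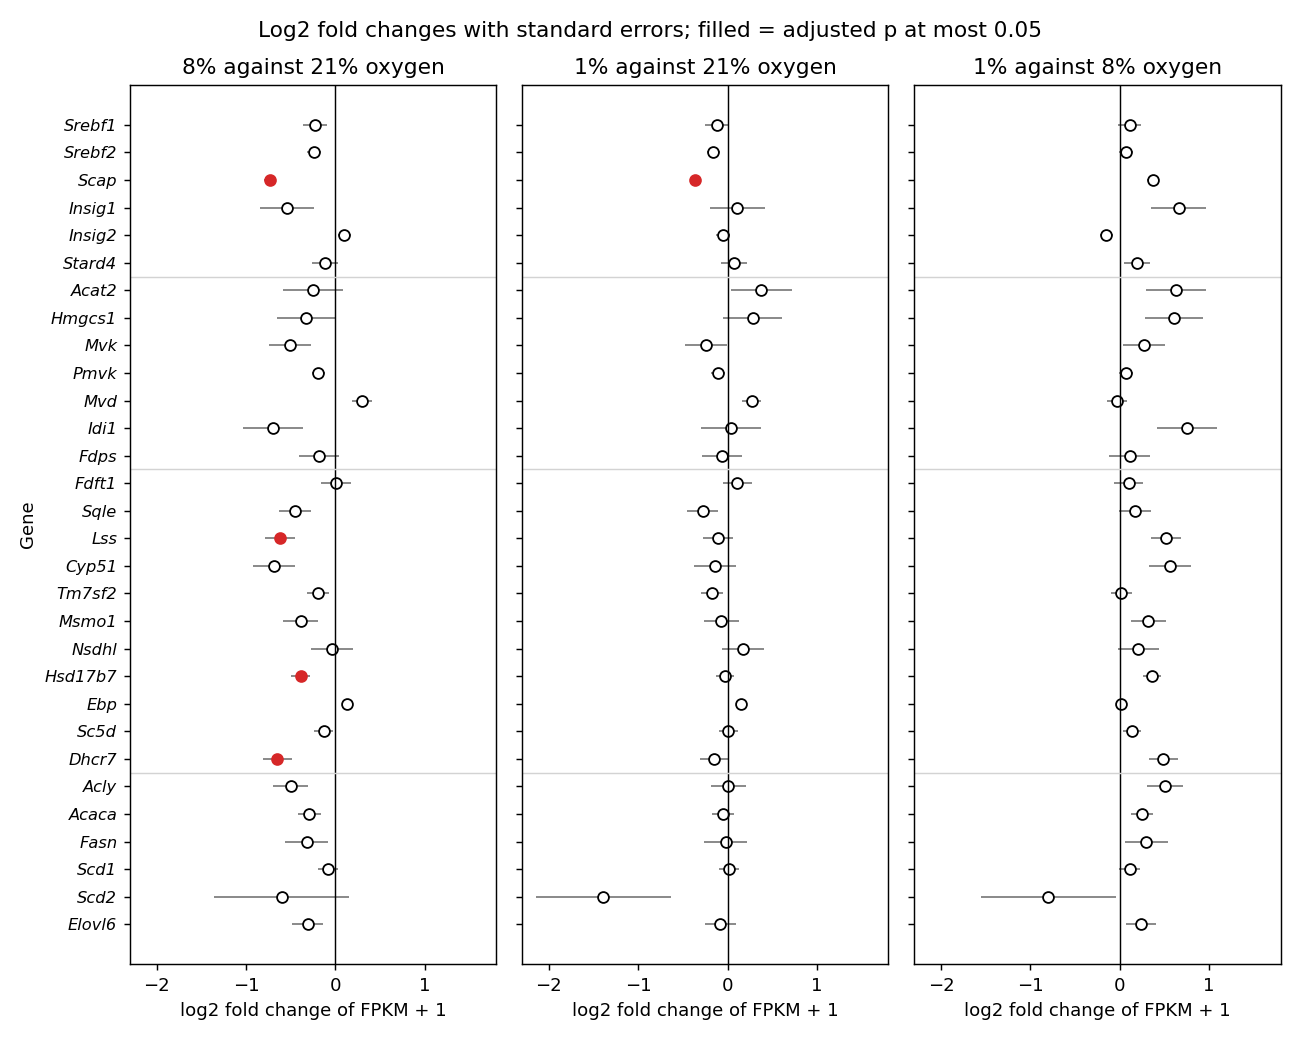
Log2 fold changes on the log2(FPKM + 1) scale (x axis) of the 30 genes (y axis, grouped as regulators, mevalonate branch, squalene branch and fatty acid enzymes) in the 3 comparisons, with standard errors as horizontal lines. Filled points passed an adjusted p of 0.05: Scap, Lss, Hsd17b7 and Dhcr7 at 8% against 21% oxygen and Scap at 1% against 21%.

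At 1% against 21% oxygen, Scap was the only gene of the 30 called lower (2.89% of all genes) and 0 were called higher by limma (1.35% of all genes; 4.24% in either direction), with Mvd and Ebp higher at an unadjusted p under 0.05 (880 of all 11856 genes were). The estimates were split, 12 positive and 18 negative, with a median of −0.05 against −0.0471 over all genes. The sign of that median depended on the libraries: it was 0.136 without 21% replicate 3 and 0.032 without 1% replicate 3, and −0.213 without 21% replicate 2 and −0.103 without 1% replicate 2. The groups were apart in 1 gene, Scap, downward (19.2% of all genes) and in none upward (9.06% of all genes). Without 21% replicate 3, Hmgcs1 (0.71, adjusted p = 0.0455) and Mvd (0.40, adjusted p = 0.029) were called higher, where 2.29% of all genes were, and Scap lower (−0.35, adjusted p = 0.0361), where 5.16% were.

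Between 1% and 8% oxygen the genes were higher at 1% in nearly every case, without passing the test. Of the 30 estimates 27 were positive, against 5837 of 11856 for all genes, and the median was 0.22 against −0.00307. All 1% libraries lay above all 8% libraries in 13 genes (16.3% of all genes), namely Scap, Insig1, Acat2, Hmgcs1, Idi1, Lss, Cyp51, Msmo1, Hsd17b7, Dhcr7, Acly, Acaca and Fasn, and below them in 1, Insig2 (16.8% of all genes). Limma called 0 of 30 in either direction, where it called 0.0675% of all genes higher and 0.059% lower (0.127% in all); at an unadjusted p under 0.05, 6 genes were higher and 0 lower, where 1141 of all 11856 genes were higher and 1106 lower. The shared estimate of the spread takes in the 21% libraries. In the fit to the 6 libraries of 1% and 8% oxygen alone, 6 of the 30 were called higher and 0 lower (2.24% and 1.85% of all genes), namely Scap, Insig1, Hmgcs1, Lss, Hsd17b7 and Acly, with adjusted p between 0.0292 and 0.0481. Without 21% replicate 3, Scap and Lss were called higher and 0 lower (2.01% and 1.66% of all genes). The 8% libraries serve in both this comparison and that with 21% oxygen, so the negative estimates there and the positive ones here share their values.

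The 3 libraries of 21% oxygen were spread widely, and in the same order in most of the genes. Replicate 3 was the highest of all 9 libraries in 25 of the 30 genes, which held for 22.6% of all genes, and within 21% oxygen replicate 3 was highest and replicate 2 lowest in 24 (24% of all genes). The highest 21% library exceeded the lowest by a median of 1.59 times over the 30 genes, and by more than 2 times in 10 of them (Insig1, Acat2, Hmgcs1, Mvk, Idi1, Fdps, Cyp51, Nsdhl, Fasn and Scd2), against medians of 1.1 times at 8% and 1.22 times at 1%. Scap had the smallest such ratio at 21% oxygen, 1.08. The median SD of log2 values was 0.34 at 21%, 0.0651 at 8% and 0.145 at 1%, beside 0.132, 0.088 and 0.0866 over all genes tested. The 8% oxygen mean was the lowest of the 3 in 25 of the 30 genes, as it was in 40.6% of all genes.

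**Figure D3:**
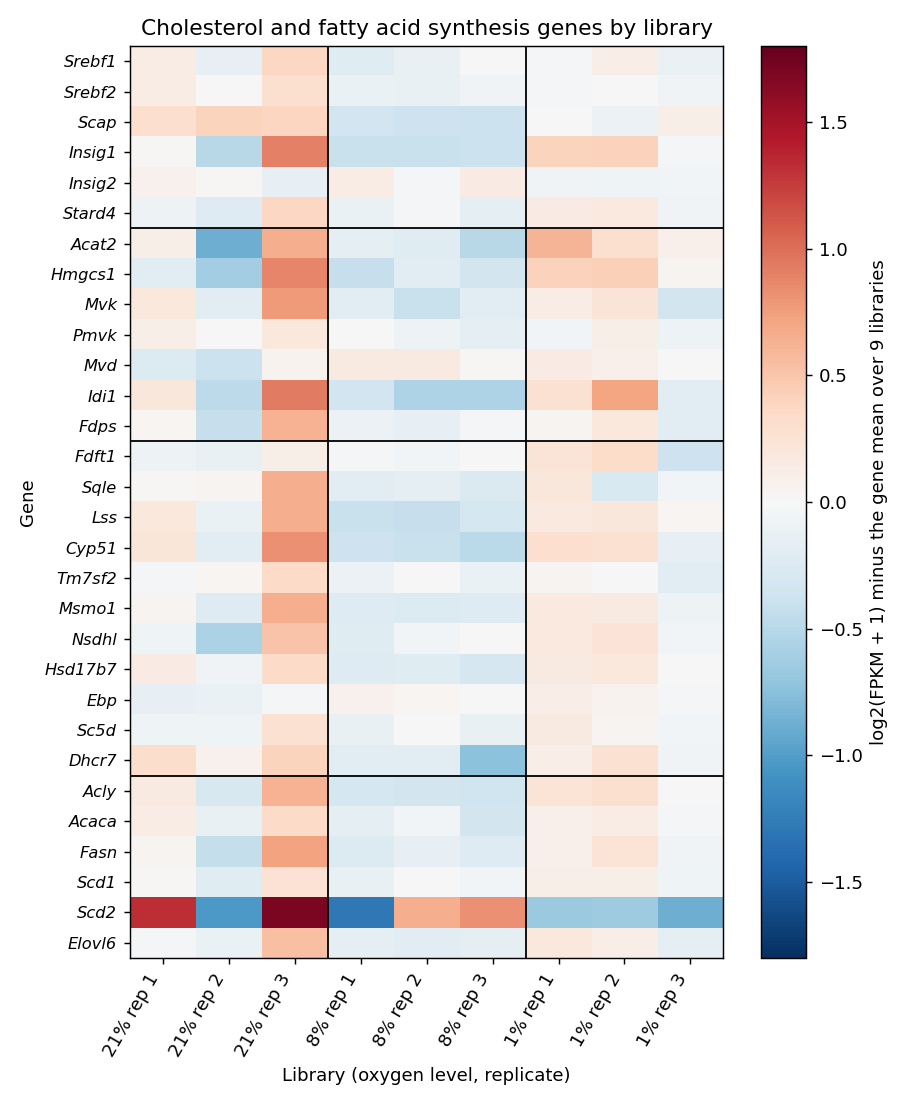
Each cell gives log2(FPKM + 1) in a library (x axis) minus the gene's mean over the 9 libraries, for the 30 genes (y axis) grouped by horizontal lines into regulators, mevalonate branch, squalene branch and fatty acid enzymes; vertical lines part the oxygen levels. The column of 21% replicate 3 is red in most rows and that of 21% replicate 2 mostly blue, the 8% columns are pale blue, and Scd2 follows a pattern of its own.

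Genes of DNA replication moved with the same libraries. Over 20 of them (all tested, such as the helicase subunit Mcm7 and the polymerase gene Pola1), the median deviation from each gene's mean was 0.17, −0.272 and 0.934 in 21% replicates 1, 2 and 3, −0.44, −0.429 and −0.396 at 8% oxygen and 0.239, 0.149 and −0.0729 at 1%. For the 30 cholesterol and fatty acid genes the same measure was 0.0615, −0.175 and 0.458 at 21%, −0.197, −0.144 and −0.177 at 8% and 0.149, 0.166 and −0.0584 at 1%. Over all genes it stayed between −0.0191 and 0.0402. The summed FPKM of the replication genes ranged from 162 to 449.3 at 21%, 147.5 to 152.9 at 8% and 195.3 to 246.7 at 1%. Their part in the results above was not tested.

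**Figure D4:**
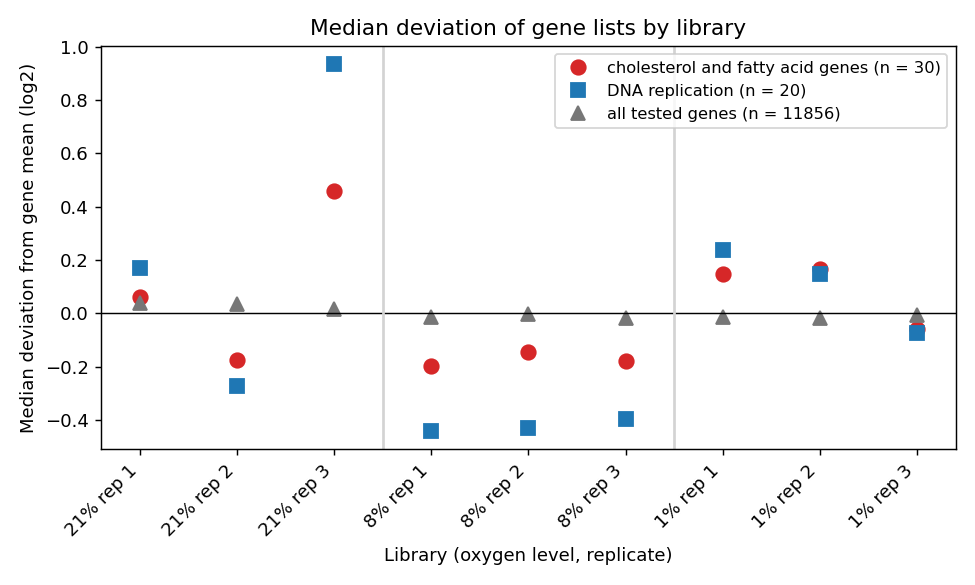
Median deviation from the gene mean over 9 libraries (y axis, log2 units) in each library (x axis) for the 30 cholesterol and fatty acid genes, 20 DNA replication genes and all 11856 genes tested. Both lists are highest in 21% replicate 3 (0.458 and 0.934) and at or below −0.144 in the 8% libraries, while all genes stay near 0.

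Neighbouring lipid genes were counted from further lists, each to be read against the 8.38% of all genes called higher and 14.9% called lower at 8% against 21% oxygen. Of 14 tested genes listed for sterol uptake, transport and related steps, 2 rose and 1 fell at 8% against 21% oxygen. Gramd1a, a sterol carrier between membranes, rose from 18.2 ± 3.94 to 33.2 ± 2.16 FPKM (0.85, adjusted p = 0.00623), and Npc2, the lysosomal cholesterol carrier, from 76.8 ± 0.91 to 93.2 ± 1.16 (0.28, adjusted p = 0.00495) and to 92.0 ± 2.33 at 1% (0.26, adjusted p = 0.0246). Tmem97, an SREBP-responsive gene of the endoplasmic reticulum, fell from 29.4 ± 0.701 to 21.7 ± 0.554 (−0.42, adjusted p = 0.00194). Among 13 tested genes of lipid droplets and ester synthesis, 3 rose and 3 fell at 8%: Lpin2 (0.45, adjusted p = 0.00599) and the droplet coat gene Plin3 (0.39, adjusted p = 0.00315) rose, while the coat gene Plin2 (−0.27, adjusted p = 0.0323) and the lipase inhibitor Hilpda (−0.35, adjusted p = 0.041) fell. Of 23 tested genes of fatty acid supply, elongation and desaturation 1 rose and 3 fell, among them the desaturase-like gene Fads3 (−0.57, adjusted p = 0.0112) and malic enzyme, Me1 (−0.19, adjusted p = 0.0226), while Acbd3 was the gene that rose (0.21, adjusted p = 0.0412). Of 16 tested genes that use farnesyl or geranylgeranyl units 5 fell and 0 rose, beside the same 14.9% and 8.38%, among them Zmpste24, the prenyl protein protease (−0.44, adjusted p = 0.00234; −0.34 at 1% against 21% oxygen, adjusted p = 0.0231), Coq2 of ubiquinone synthesis (−0.33, adjusted p = 0.0291) and Rabggta, a subunit of the Rab geranylgeranyl transferase (−0.30, adjusted p = 0.0373). A list made for LXR receptors and targets had 5 tested genes and gave 2 higher and 1 lower. Abca7 rose by 0.29 (adjusted p = 0.0232) and Lpcat3 fell by 0.36 (adjusted p = 0.0269). Whether each gene of that list answers to LXR was not examined, Abca7 included. At 1% against 21% oxygen, where 1.35% of all genes were called higher and 2.89% lower, these lists gave 1 higher call (Npc2) and 2 lower (Zmpste24 and Pdss1), and between 1% and 8% none by limma, where each list had 1 to 4 genes higher and 1 to 3 lower at an unadjusted p under 0.05.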

How the data were processed

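The deposited table holds gene-level FPKM made by the authors. The submitters' processing notes name build mm10, StringTie 1.3.4d, HISAT2 2.0.4, cutadapt 1.9.1 and FastQC 0.11.8. No source used here states the annotation release or the strand setting; the labels name a stranded kit for polyadenylated RNA. Depth is unknown, so no counting intervals are given. Columns were matched to samples by title.

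The 11856 genes that reached 1 FPKM in 3 or more of the 9 libraries were fitted on log2(FPKM + 1) by limma 3.58.1 (R 4.3.3), as group means with a mean-variance trend; tests are two-sided. The code was tested on simulated data. Positions, exon overlaps and shared 50-base stretches come from GENCODE M21 (GRCm38), promoters from RefSeq (GRCm38.p6). Every one of the 30 genes is given by its values; of each further list, up to 4 called genes with a mean of 5 FPKM or more are named by size of change, and Rnf139, Mbtps2, Pdss1 and the marker genes with values were named after their values were seen. The 30 genes, the lists and the motifs were chosen with earlier results of these data known. Krt12 and Krt5, of the list of epithelial markers, had no entry under those names in the table used here, so no level is given for them. The 16 alternatives comprise another pseudocount, 2 other filters, 2 normalizations, a fit to the 6 libraries compared, a replicate block and leaving out each library.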

Additional observations from a re-analysis of the deposited data

How the results depend on the processing

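The fall of Scap at 8% against 21% oxygen kept its direction and its call in all 16 alternatives, with log2 fold changes from −0.81 to −0.66. The number of the 30 genes called lower in that comparison, 4, was 1 with no filter on low values, 1 when only the 6 libraries of both levels were fitted, and from 1 to 14 when a library was left out; the number called higher, 0, then ran from 0 to 1. At 1% against 21% oxygen the number called lower, 1, became 0 with quantile normalization and with only the 6 libraries, and ran from 0 to 1 with a library left out, while the number called higher ran from 0 to 2. At 1% against 8% oxygen 6 genes were called higher with only the 6 libraries, and from 0 to 2 with a library left out. The F test, which called 1, called 2 on log2(FPKM + 0.1), 3 with a minimum mean of 5 FPKM, and from 1 to 6 with a library left out. The cause was not tested.

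The median log2 fold change over the 30 genes ran from −0.467 to −0.102 at 8% against 21% oxygen, from −0.213 to 0.136 at 1% against 21% and from 0.174 to 0.308 at 1% against 8% when a library was left out. Scaling moved the share of higher calls among all genes called at 8% against 21% oxygen from 35.9% to 49.1% with median-ratio rescaling and to 46.6% with quantile normalization, and at 1% against 21% from 31.8% to 53.9% and 47.7%.

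With the replicate number as a block, 2 of the 30 genes (Scap and Dhcr7) were called lower at 8% against 21% oxygen and 0 at 1% against 21%. The deviations of same-numbered libraries correlated between −0.303 and 0.095 over 9 pairs, and those of differently numbered libraries between −0.132 and 0.246. The best match was to the same number in 6 of 18 comparisons. Same-numbered libraries were thus no more alike by this measure, and whether the numbers mark a shared batch was not tested.

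Estimates that changed sign all belonged to genes not called in the comparison. With median-ratio rescaling Nsdhl came to 0.00 at 8% against 21% oxygen, and at 1% against 21% Insig2 came to 0.00, Hsd17b7 to 0.02 and Fasn to 0.03. With quantile normalization Hsd17b7 came to 0.04, Acly to −0.02, Acaca to 0.01 and Fasn to 0.01 at 1% against 21%, and Tm7sf2 to 0.00 at 1% against 8%. With a library left out, the estimates at 8% against 21% oxygen ran for Stard4 from −0.24 to 0.06, Acat2 from −0.67 to 0.10, Hmgcs1 from −0.66 to 0.09, Fdps from −0.43 to 0.09, Fdft1 from −0.03 to 0.09, Nsdhl from −0.30 to 0.24, Scd1 from −0.20 to 0.03 and Scd2 from −1.45 to 0.08. At 1% against 21% they ran for Srebf1 from −0.25 to 0.01, Insig1 from −0.21 to 0.50, Stard4 from −0.05 to 0.25, Acat2 from −0.05 to 0.72, Hmgcs1 from −0.05 to 0.71, Mvk from −0.46 to 0.02, Idi1 from −0.30 to 0.40, Fdps from −0.31 to 0.21, Fdft1 from −0.03 to 0.33, Lss from −0.29 to 0.10, Cyp51 from −0.38 to 0.14, Msmo1 from −0.27 to 0.18, Nsdhl from −0.09 to 0.45, Hsd17b7 from −0.13 to 0.07, Sc5d from −0.05 to 0.13, Acly from −0.22 to 0.24, Acaca from −0.17 to 0.07, Fasn from −0.29 to 0.29, Scd1 from −0.09 to 0.14 and Elovl6 from −0.20 to 0.14. At 1% against 8% they ran for Mvd from −0.08 to 0.01, Fdft1 from −0.04 to 0.31, Tm7sf2 from −0.04 to 0.10 and Ebp from −0.02 to 0.05.

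With 3 libraries a level and no read counts, small changes of genes near 1 FPKM, such as Tm7sf2, could not be resolved.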

Other observations

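The spread of Scd2 within an oxygen level was uncommon among abundant genes, a comparison chosen after its values were seen. Of the 2501 genes averaging 20 FPKM or more, 12 had a highest library more than 3 times the lowest within both 21% and 8% oxygen. By annotation 5 of these were processed pseudogenes, 3 were transcribed processed pseudogenes, 1 was a long intergenic RNA and 3 were protein-coding, namely Scd2, Rpl10-ps3 and Gm45717.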
